A study of Mus musculus with 14 samples.

Results

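The 40 genes described here encode the actin cytoskeleton, the contractile apparatus of smooth muscle and the plaque of the focal adhesion. They were taken by symbol from a list chosen for this purpose, and all 40 were found among the 32926 symbols of the count table. By their known roles 9 were classed as smooth muscle contractile genes, 14 as general actin and actomyosin genes, 16 as focal adhesion plaque genes, and 1, Srf, as a transcription factor. The classes are no clean split of muscle from non-muscle genes. The general class holds Flnc, the muscle filamin, and the contractile class holds Cald1 and Tpm1, well expressed in the neuroendocrine cells described below. The 14 RNA-seq libraries come from mouse small cell lung cancer cells grown in Hites medium. All cells came from lung tumours of adult mice of mixed strain that carried the CGRPCreER/+ allele together with the floxed alleles Rbf/f, P53f/f and Ptenf/f. Cre recombinase in such mice is driven from the promoter of the neuroendocrine peptide CGRP, and the mice were injected with TM, as the labels abbreviate it. The labels name 3 neuroendocrine libraries (NE) and 3 non-neuroendocrine libraries (Non-NE). A further 8 libraries came from NE cells overexpressing YAP5SA, a mutant YAP whose main sites for Hippo pathway kinases are changed, at day 0, 3, 7 and 21 with 2 libraries each. For 7 of these 8 the labels add Rosa26rtTA and Tet-onYAP5SA, a tetracycline-regulated transgene. Day 0 replicate 1 is labelled without them. The genotype field of 6 libraries numbers the floxed P53 gene differently from the text on the source, which gives P53f/f for every library.

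Actin filaments and non-muscle myosin generate tension in all animal cells, and focal adhesions pass that tension through talin, vinculin and their partners to integrins and the matrix. Smooth muscle cells add their own isoforms of actin, myosin light chain, calponin, transgelin and tropomyosin, which fibroblasts also switch on when they become myofibroblasts. Many genes of both kinds are controlled by the serum response factor SRF, which binds the CArG box and is brought into play by cofactors that sense free actin monomers. YAP acts through TEAD factors, which bind the MCAT element, and is itself known to respond to cell spreading and tension.

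Library totals ran from 6730816 to 10659524 counts. Levels are given as CPM, counts scaled to a common library size after TMM normalization, a correction for differences in RNA composition. The 40 genes together held 0.431% to 0.543% of the counts in NE libraries, 1.76%, 3.44% and 2.16% in Non-NE libraries 1, 2 and 3, and 0.482% to 1.42% from day 0 to day 21. In each of the 32926 genes NE replicate 2 stayed at or below day 0 replicate 1, and its counts fitted a random 85.7% of that library (chi-square per gene 1.02 over 11829 genes), so these are 1 set of reads and NE and day 0 are not independent. Libraries of the same day resembled each other closely (Pearson r of log2(CPM + 1) across genes 0.995 to 0.997), and those of NE and Non-NE less so (0.923 to 0.956). Nothing in the labels says that libraries of a group came from separate cultures, so p-values measure only the spread between these libraries. In bulk RNA a lower level cannot be told apart from fewer cells carrying the transcript.

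**Figure D1:**
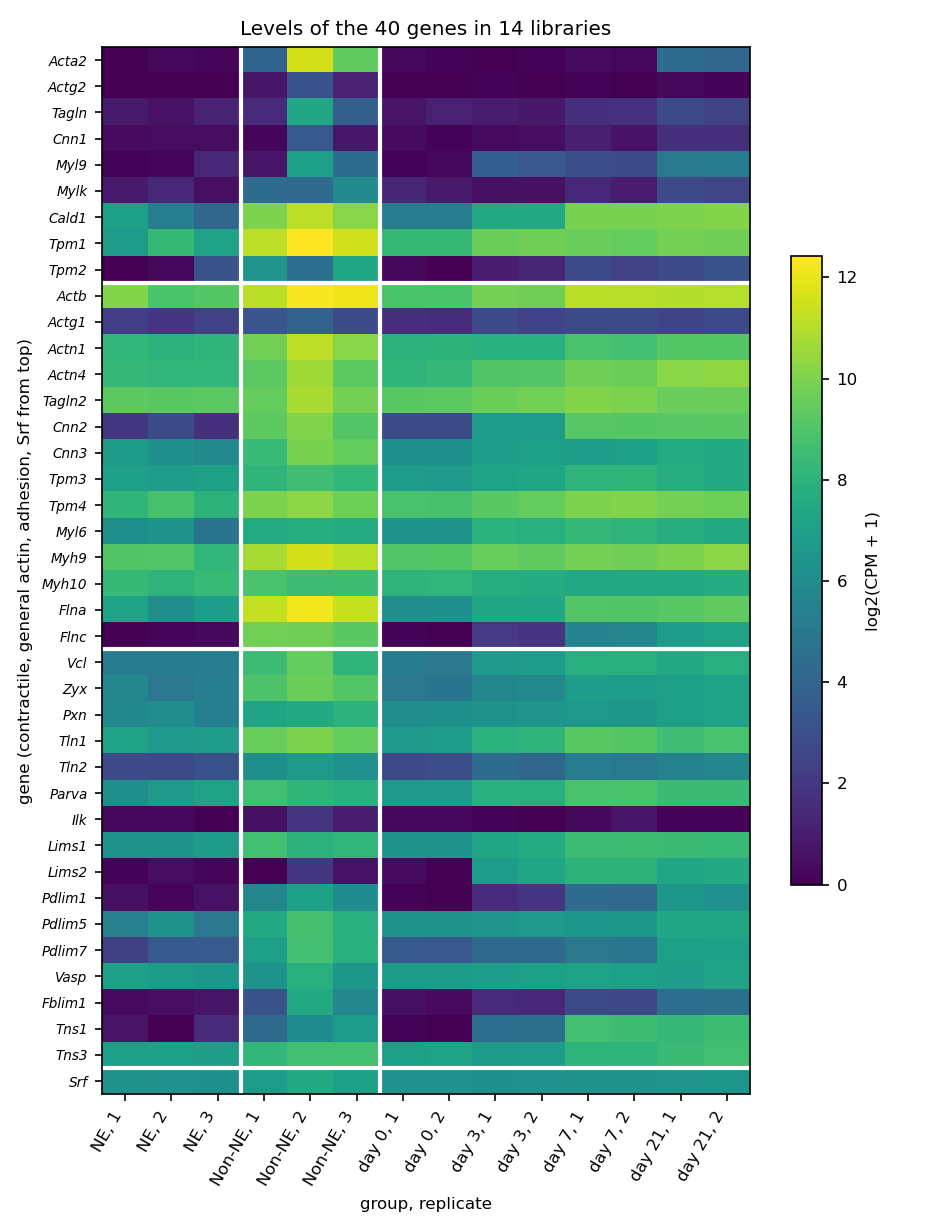
Level of each of the 40 genes (rows, in the order contractile, general actin, adhesion, Srf) in each of the 14 libraries (columns), as log2(CPM + 1) on the colour scale. NE and day 0 columns are dark for most contractile genes, and the 3 Non-NE columns differ most in the top rows.

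The promoters of the 40 genes were looked up in RefSeq on GRCm38.p6, each from 250 bases before to 50 bases after the annotated start. Of the 40 genes 33 had an entry. The unmatched genes were Actg2, Actb, Tagln, Pxn, Tln2, Parva and Lims2. The windows below show every strict CArG box among them, together with the Acta2 promoter, whose boxes depart from the strict form. A strict CArG box here is the full SRF consensus, whose core holds only the weakly pairing bases. Both motifs were searched on both strands. Capitals mark the CArG boxes and, in the windows of Acta2 and Vcl, the MCAT element, CATTCC or GGAATG by strand.
Acta2, chr19:34255374-34255533 (- strand): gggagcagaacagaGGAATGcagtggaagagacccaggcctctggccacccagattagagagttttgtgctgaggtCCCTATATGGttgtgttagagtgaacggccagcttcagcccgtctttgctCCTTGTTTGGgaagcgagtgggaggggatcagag
Myl9, chr2:156775284-156775343 (+ strand): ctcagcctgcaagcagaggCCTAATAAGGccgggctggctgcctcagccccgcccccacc
Actg1, chr11:120348546-120348605 (- strand): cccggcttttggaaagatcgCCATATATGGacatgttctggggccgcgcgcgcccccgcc
Cnn2, chr10:79988520-79988579 (+ strand): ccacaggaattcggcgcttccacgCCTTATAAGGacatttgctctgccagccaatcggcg
Myl6, chr10:128493025-128493084 (- strand): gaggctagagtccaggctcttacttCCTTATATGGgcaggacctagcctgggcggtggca
Vcl, chr14:20929158-20929278 (+ strand): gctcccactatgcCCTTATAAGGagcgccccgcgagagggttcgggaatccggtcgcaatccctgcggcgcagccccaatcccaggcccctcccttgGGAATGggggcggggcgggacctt
Srf, chr17:46556163-46556262 (- strand): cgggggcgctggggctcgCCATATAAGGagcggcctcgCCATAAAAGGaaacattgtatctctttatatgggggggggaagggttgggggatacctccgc

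A strict CArG box stood in 6 of the 33 promoters (18.2%), against 1.81% of 27025 genes with a promoter of the same length. The 6 were Myl9 (contractile), Actg1, Cnn2 and Myl6 (general actin), Vcl (adhesion) and Srf itself, which held 2. With at most 1 departure in the core the count was 10 of 33 (30.3%) against 11.3% of all genes, now including Acta2, Flnc, Tpm3 and Vasp. Acta2 held a pair of such boxes, beginning 84 and 34 bases before its annotated start. The MCAT element stood in 11 of 33 (33.3%) against 16.6%, and in 4 of the 7 contractile promoters, those of Acta2, Mylk, Cald1 and Tpm1. No strict box overlapped an MCAT element in the windows shown. These matches describe letters only, and binding was not measured.

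**Figure D2:**
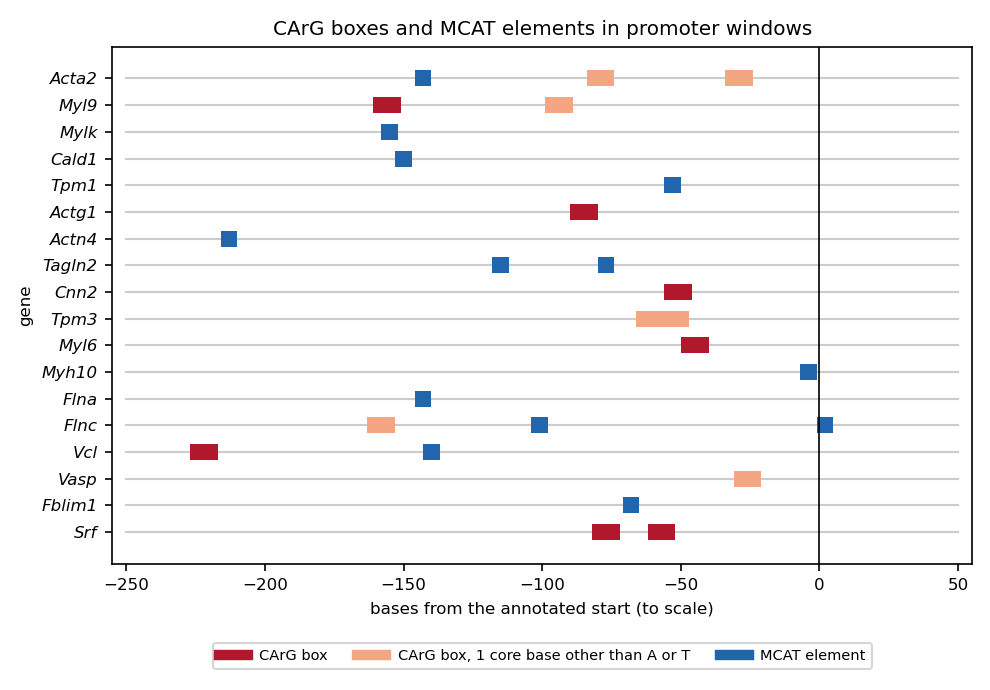
Positions of CArG boxes (strict, or with 1 departure in the core) and MCAT elements in the promoter windows, each gene with a match on its own line. The x axis is the distance in bases from the annotated start, to scale. The strict box farthest out lies 227 bases before the start, in Vcl, and the Srf promoter carries 2.

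Most of the 40 genes were higher in Non-NE than in NE cells. In edgeR's quasi-likelihood test 32 of the 40 genes were higher in Non-NE and 0 lower, where 42.8% of 12966 genes tested were called (20.0% higher, 22.8% lower) at an adjusted p under 0.05. The remaining 8 were Actg1, Tagln2, Myh10 and Vasp, which were tested and not called, and Actg2, Cnn1, Ilk and Lims2, whose counts were too low to test. By class 7 of 9 contractile, 11 of 14 general actin and 13 of 16 adhesion genes rose, and Srf rose. The median log2 change of the genes tested was 5.09 for the contractile, 2.01 for the general actin and 3.18 for the adhesion class, beside -0.02 over all genes. Genes near 0 in NE could enter the test only through Non-NE, so these counts describe the list and lend it no weight. Without NE replicate 2, the shared read set, 28 genes were called.

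Acta2, the smooth muscle alpha-actin, had 3 counts in all in the NE libraries, at 0, 0.219 and 0.107 CPM. Non-NE replicates 1, 2 and 3 reached 15.0, 3174 and 662 CPM. Every Non-NE library lay far above every NE library, but the lowest and highest Non-NE libraries stood 211-fold apart. The pooled ratio was 13154-fold (95% counting interval 4501 to 63786), with an edgeR log2 change of 13.36 (SE 2.44, adjusted p = 0.00511). With limma-voom the adjusted p was 0.0865.

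Tagln, which encodes the actin-bundling protein transgelin, stood at 0.869, 0.547 and 1.39 CPM in NE and at 1.82, 169 and 12.5 CPM in Non-NE. Myl9, the regulatory light chain of smooth muscle myosin, stood at 0.0966, 0.109 and 1.71 CPM in NE and at 0.661, 128 and 20.2 CPM in Non-NE. Both genes were low in Non-NE replicate 1, and for Myl9 that library lay below NE replicate 3, so the groups overlapped. The edgeR log2 changes were 5.97 (SE 1.67, adjusted p = 0.0268) for Tagln and 6.22 (SE 1.90, adjusted p = 0.0361) for Myl9. Neither call was stable. Tagln lost it without Non-NE replicate 2 (adjusted p = 0.0545), without NE replicate 1, 2 or 3 (0.0859, 0.0865 and 0.0720), and under 3 further alternatives up to 0.137. Myl9 lost it without NE replicate 1 or 2 (0.106 and 0.103), without Non-NE replicate 2 or 3 (0.110 and 0.0542), and under 2 further alternatives up to 0.118. In the annotation 67.9% of the exon bases of Tagln overlap Pcsk7 or Gm48529 on the other strand, and no source used here states whether strand was counted.

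Tropomyosins wrap actin filaments, and caldesmon blocks myosin until relieved. Among the Non-NE libraries Tpm1 and Cald1 varied less than Acta2, Tagln and Myl9. Tpm1 was at 113, 321 and 143 CPM in NE and at 2330.1, 5449.8 and 2974 CPM in Non-NE, 18.0-fold higher (log2 4.17, SE 0.56, adjusted p = 0.00148). Cald1 was at 133, 38.4 and 15.9 CPM in NE and at 1042, 2305 and 1186 CPM in Non-NE, 23.6-fold higher (adjusted p = 0.00561). Neither gene overlapped between the groups, and both were already well expressed in NE, unlike the other contractile genes. Mylk, the kinase that activates smooth muscle myosin, was 32.3-fold higher (adjusted p = 0.00233), with 19.01, 18.1 and 61.0 CPM in Non-NE. Tpm2 was at 0, 0.219 and 7.89 CPM in NE and at 89.1, 22.2 and 172 CPM in Non-NE, a log2 change of 5.09 (SE 1.57, adjusted p = 0.0375). That call was lost without NE replicate 1 or 2 (0.0672 and 0.0893), without Non-NE replicate 1 or 3 (0.0648 and 0.101), and without the count filter (0.0791). Actg2, the enteric smooth muscle actin, had 0 counts in NE and 79 in Non-NE, at least 32.2-fold higher against a floor of 3 counts over the group. Cnn1, the smooth muscle calponin, was at 10.1 CPM in Non-NE replicate 2 but at 0.165 and 0.743 CPM in the other Non-NE libraries, and overlapped NE.

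Of the general actin genes, Actb, the cytoplasmic beta-actin, was at 1087, 478 and 554 CPM in NE and at 2207, 5033 and 4377 CPM in Non-NE, 5.34-fold higher (edgeR adjusted p = 0.00569). Flna, an actin crosslinker of the filamin family, was at 147, 69.0 and 118 CPM in NE and at 2487, 4557 and 2532 CPM in Non-NE, 27.9-fold higher (log2 4.80, SE 0.44, adjusted p = 0.000281). Flnc, the muscle filamin, had 3 counts over the NE libraries and stood at 864, 837 and 599 CPM in Non-NE, a pooled ratio of 7211 (95% counting interval 2467 to 34969.5, adjusted p = 2.59e-05). Cnn2, the widely expressed calponin, was at 2.99, 6.34 and 2.34 CPM in NE and at 649, 1062 and 546 CPM in Non-NE, 187-fold higher (adjusted p = 0.000117). For these 3 genes the Non-NE libraries lay within 1.95-fold of each other, and no NE library came near them. Myh9, the heavy chain of non-muscle myosin IIA, was 5.02-fold higher (adjusted p = 0.00197). Its paralogue Myh10, myosin IIB, was at 271 to 340 CPM in NE and 365 to 458 CPM in Non-NE (adjusted p = 0.182). Actg1, the gamma-actin, was at 2.62 to 4.48 CPM in NE and 6.48 to 13.8 CPM in Non-NE (adjusted p = 0.0506), and 37.4% of its 50-base stretches also occur in other genes, mostly pseudogenes, so its level is uncertain.

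Of the adhesion plaque genes 13 of 16 rose, by between 2.78-fold (Tns3) and 206-fold (Pdlim1). Vcl, vinculin, was at 33.2, 32.9 and 36.3 CPM in NE and at 367, 704 and 275 CPM in Non-NE, 12.7-fold higher (log2 3.67, SE 0.38, adjusted p = 0.000515). Zyx, zyxin, which marks adhesions under tension, was at 52.8, 29.7 and 38.7 CPM in NE and at 490, 782 and 549 CPM in Non-NE, 14.6-fold higher (log2 3.87, SE 0.31, adjusted p = 0.000174). For both genes the lowest Non-NE library lay several times above the highest NE library. In the annotation 25.5% of the exon bases of Vcl overlap Ap3m1 on the other strand, with the strand setting not known. The talins, which link integrins to actin, were 6.78-fold (Tln1) and 12.1-fold (Tln2) higher. Pxn, Parva and Lims1, scaffold proteins of the plaque, were 3.59-fold, 2.84-fold and 3.36-fold higher. The LIM and PDZ domain genes spread widely, from 5.36-fold for Pdlim5 to 29.4-fold for Pdlim7 and 206-fold for Pdlim1. Vasp, which promotes filament growth, was at 94.8 to 136 CPM in NE and at 82.5, 225 and 92.99 CPM in Non-NE, and overlapped (adjusted p = 0.726). Ilk was under 3 CPM in every library, and 89.7% of its exon bases overlap Taf10 or Rrp8 on the other strand, so nothing is read from it.

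Srf itself was at 80.1, 76.6 and 74.8 CPM in NE and at 111, 189 and 134 CPM in Non-NE. The groups did not overlap, and the change was small, 1.82-fold (edgeR log2 0.86, SE 0.23, adjusted p = 0.0221). That call was lost without NE replicate 1, 2 or 3 (adjusted p 0.0535, 0.0540 and 0.0524), without Non-NE replicate 2 (0.0603), and with library totals only (0.0608).

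The 3 Non-NE libraries lay closer together in adhesion and general actin genes than in contractile genes. The median SD of log2(CPM + 1) over the 3 libraries was 1.48 for the 9 contractile genes, 0.656 for the 16 adhesion genes and 0.497 for the 14 general actin genes, beside 0.331 for all genes of at least 1 CPM. In the NE libraries the contractile class was also the widest, at 1.50 for its 3 genes of at least 1 CPM. There the adhesion class stood at 0.258, general actin at 0.419 and all genes at 0.299. From the lowest to the highest Non-NE library, Acta2 spanned 211-fold, Myl9 193-fold, Tagln 92.9-fold and Cnn1 61.3-fold (from 1 count in the lowest). Vcl spanned 2.56-fold, Zyx 1.60-fold, Tln1 1.48-fold and Tns3 1.32-fold. Non-NE replicate 1 was the lowest for 7 of the 9 contractile and 12 of the 16 adhesion genes, and replicate 2 the highest for 7 and 12. Of the 14 general actin genes replicate 1 was the lowest for 7 and replicate 3 for 6, and replicate 2 the highest for 12. The shares over all genes were not computed, so a shift of whole libraries cannot be told apart from a trait of these classes.

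The contractile class did not vary as a block. Tpm2 and Mylk were lowest in replicate 2, at 22.2 and 18.1 CPM, and highest in replicate 3, at 172 and 61.0 CPM. Cald1 and Tpm1 spanned only 2.21-fold and 2.34-fold. Among the adhesion genes Fblim1, which encodes the filamin partner migfilin, had its order of libraries in common with Acta2, at 8.10, 190 and 52.5 CPM, a span of 23.5-fold. Tns1, a tensin, was at 18.5, 65.6 and 116 CPM. Whether a library is a clone, a passage or a culture was not stated. With 1 library of each kind these spans have no replicate check, and no test was made of them.

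**Figure D3:**
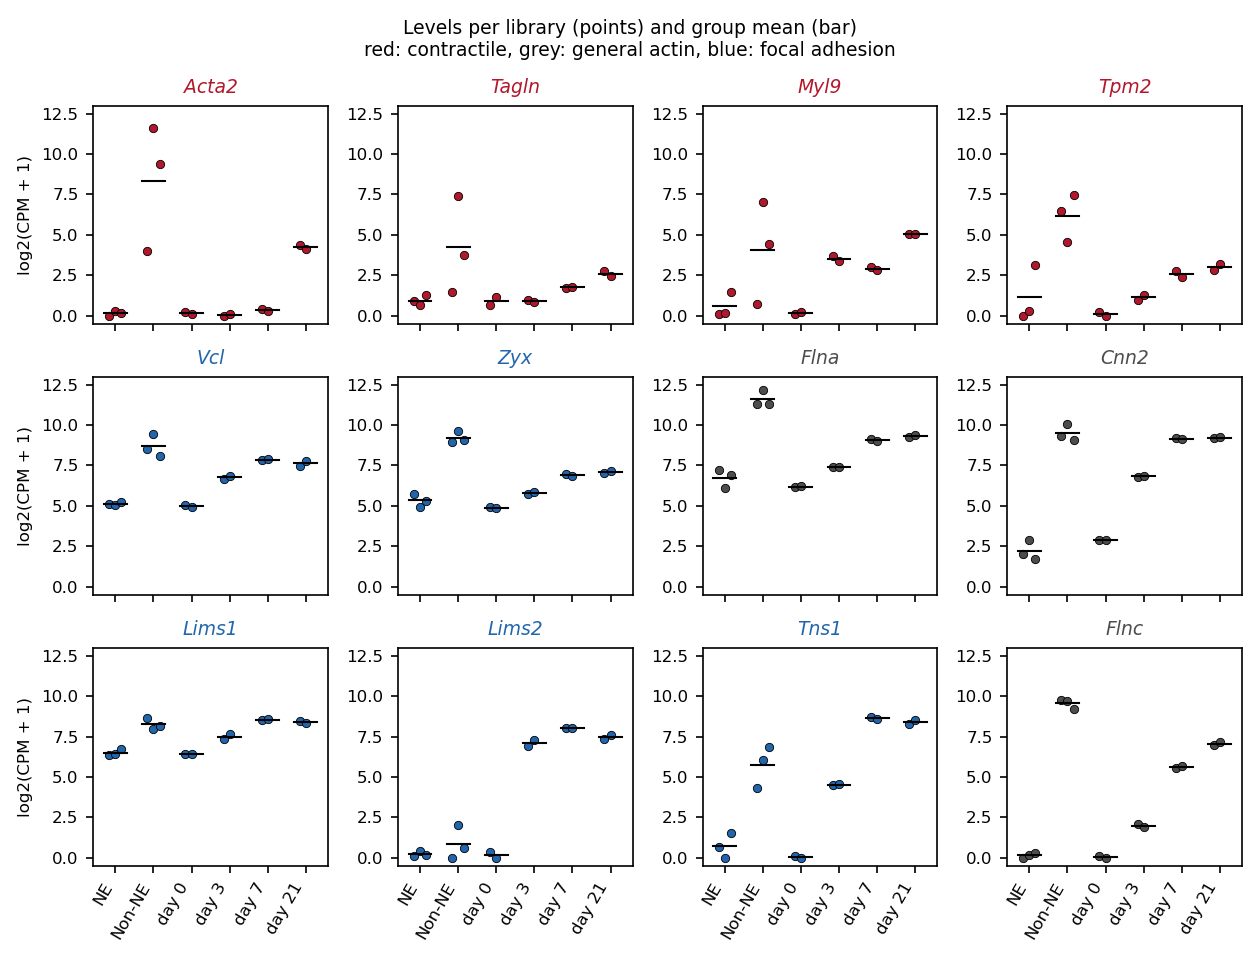
Level of 12 of the genes in each library (points) with the group mean (bar), as log2(CPM + 1), for NE, Non-NE and each YAP5SA day. The Non-NE points of Acta2, Tagln and Myl9 are far apart, while those of Vcl, Zyx, Flna and Cnn2 lie close together, and Lims2 and Tns1 are highest on days 7 and 21.

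With YAP5SA most of the 40 genes were called higher than at day 0 by day 3. Acta2 and Mylk were called higher only at day 21, and the other 6 contractile genes that could be tested by day 7. The day 7 call of Cnn1 was lost with the DESeq2 test (adjusted p = 0.0502), and that of Tagln without day 0 replicate 1 (log2 0.99). With all 14 libraries in a fit the day 7 calls of Tagln, Cnn1, Myl9, Tpm1 and Tpm2 were lost (edgeR adjusted p 0.0685 to 0.542). Against day 0, 29 genes were higher and 3 lower at day 3, where 48.6% of 13996 genes tested were called (26.2% higher, 22.4% lower). At day 7 it was 34 and 1, with 71.0% of all genes called (37.2% and 33.8%), and at day 21 37 and 1, with 71.7% called (37.7% and 34.0%). The lower genes were Mylk, Myh10 and Tns3 at day 3 and Myh10 alone on days 7 and 21. Actg2 and Ilk were too low to test. Acta2, Myl9, Tpm2, Flnc, Lims2, Pdlim1 and Tns1 had at most 3 counts at day 0. Such genes could enter the test only through later days, so these counts and the class medians describe the list and lend it no weight. The median log2 change of the adhesion class was 1.17 at day 3, 2.23 at day 7 and 2.26 at day 21, and that of the general actin class 0.79, 1.40 and 1.25. For the contractile class it was 1.07, 1.75 and 4.20, with at most 3 counts at day 0 for Acta2, Myl9 and Tpm2. As log2(CPM + 1), which damps changes of low counts, the contractile median rose by 0.85 and 0.89 in the day 7 libraries. At day 21 it stood 1.88 and 1.56 above day 0. The adhesion median then rose by 2.14 and 2.16 at day 7 and by 2.09 and 2.18 at day 21. The medians of log2(CPM + 1) include Actg2 and Ilk, which the medians of the tested genes leave out. Scale and gene set thus both differ, and which class rose more by day 21 is not settled here. All 9 contractile genes had their highest mean at day 21, against 7 of 14 general actin and 8 of 16 adhesion genes. The share of all genes highest at day 21 was not computed, so these counts are description only. Actg2 had 3 counts at day 21, and the step from day 7 to day 21 was not called for Cald1 or Tpm2. Without day 0 replicate 1, the shared read set, 29, 33 and 38 genes were called on the 3 days. No untransduced or uninduced cells were followed over the same time, so time in culture and YAP5SA cannot be told apart.

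Acta2 was at 0.187 and 0.0925 CPM at day 0, at 0 and 0.0919 at day 3, at 0.305 and 0.203 at day 7, and at 19.7 and 16.2 CPM at day 21. It was thus near the counting floor until day 7 and appeared only by day 21, 128.6-fold above day 0 as a pooled ratio (95% counting interval 43.7 to 626, edgeR adjusted p = 4.18e-15). From day 7 to day 21 its log2 change was 6.09 (SE 0.33, adjusted p = 1.06e-13), and with all 14 libraries in a fit that step was not called (0.168). Tagln was at 0.562 and 1.20 CPM at day 0 and at 5.81 and 4.46 CPM at day 21 (5.83-fold, adjusted p = 2.02e-07), and Cnn1 reached 2.29 and 2.23 CPM (11.6-fold, adjusted p = 4.37e-06). With all 14 libraries in a fit the adjusted p at day 21 was 0.242 for Tagln and 0.0932 for Cnn1. Mylk was lower at day 3 than at day 0, at 0.486 and 0.459 against 1.50 and 0.833 CPM (adjusted p = 0.0482), a call lost without day 0 replicate 1 (0.383), day 3 replicate 1 (0.118) or day 3 replicate 2 (0.163). At day 21 Mylk was at 5.72 and 4.94 CPM, 4.61-fold above day 0 (adjusted p = 9.10e-07).

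Myl9 followed another course. It stood at 0.0937 and 0.185 CPM at day 0, 11.9 and 9.28 at day 3, 7.01 and 6.10 at day 7, and 31.7 and 32.2 at day 21. The day 3 rise came with 3 counts at day 0 (pooled ratio 75.7, 95% counting interval 25.6 to 370), and the fall to day 7 (log2 -0.67, adjusted p = 0.00246) was lost without day 3 replicate 1 (0.0572). Cald1 rose early and stayed, from 37.0 and 37.4 CPM through 179 and 192 to 972 and 972, then 1042 and 1092 CPM at day 21. Its 29.1-fold rise over 21 days (log2 4.86, SE 0.09, adjusted p = 4.08e-24) came mostly by day 7, and the log2 change from day 7 to day 21 was 0.14 (adjusted p = 0.102, or 0.0157 with library totals only). Tpm1 went from 317 and 314 CPM to 791 and 840 at day 3 and to 898 and 845 at day 21, 2.80-fold above day 0. Tpm2 reached 6.002 and 8.23 CPM from 2 counts at day 0.

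Among the general actin genes Cnn2 rose from 6.28 and 6.29 CPM to 110 and 116 at day 3 and to 583 and 554 at day 7, and was at 589.7 and 607 CPM at day 21, 96.4-fold above day 0 (edgeR adjusted p = 6.31e-25). Days 7 and 21 did not differ for Cnn2 beyond their spread (adjusted p = 0.340). Flnc rose throughout, from 1 count at day 0 to 3.21 and 2.76 CPM, then 46.4 and 49.8, then 125 and 141 CPM. Actb rose from 476 and 481 to 2264 and 2136 CPM by day 7, and was at 2045 and 2096 CPM at day 21 (day 21 against day 7 adjusted p = 0.424). Myl6, an essential light chain of myosin, peaked at day 7 with 311 and 270 CPM and fell to 209 and 184 by day 21 (log2 -0.56, adjusted p = 5.23e-06). Myh10 was the 1 gene of the 40 called lower at day 21 than at day 0, falling from 270 and 285 to 180 and 206 CPM (log2 -0.50, SE 0.08, adjusted p = 1.74e-06). The libraries of each day lay close together for all of these genes.

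Lims2, encoding the adaptor PINCH2 that binds integrin-linked kinase, was at 0.281 and 0 CPM at day 0. It was at 117 and 156 CPM at day 3, 263 and 259 at day 7, and 162 and 188 at day 21. At day 3 the pooled ratio was already 982 (95% counting interval 336 to 4766, adjusted p = 2.45e-15). Tns1 went from 1 count at day 0 to 21.3 and 22.6 CPM at day 3, 422 and 376 at day 7, and 305 and 373 at day 21. Its pooled ratio at day 7 was 8572 (1538 to 338635, adjusted p = 7.24e-24). Vcl rose from 32.7 and 29.2 through 102 and 112 to 229 and 234 CPM at day 7 (7.55-fold), and Zyx from 29.8 and 27.8 through 51.6 and 57.8 to 123 and 114 CPM (4.16-fold). At day 21 Vcl was at 178 and 219 CPM, lower than at day 7 by a log2 change of -0.22 (adjusted p = 0.0333), and Zyx at 129.7 and 142 CPM, higher by 0.21 (adjusted p = 0.0334). The Vcl call was lost without day 21 replicate 1 (0.403) or day 7 replicate 1 or 2 (0.0988 and 0.144), and the Zyx call without day 21 replicate 2 (0.218) or day 7 replicate 1 or 2 (0.0579 and 0.279). With all 14 libraries in a fit the adjusted p was 0.807 for Vcl and 0.775 for Zyx.

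Pdlim1, Pdlim7 and Fblim1, already above day 0 at day 7, rose again by day 21. Pdlim1 went from 19.5 and 18.9 to 93.9 and 76.7 CPM (4.47-fold, edgeR adjusted p = 1.28e-13), Pdlim7 from 29.1 and 28.6 to 125 and 135 CPM (4.55-fold, 6.47e-16), and Fblim1 from 5.996 and 5.49 to 21.1 and 23.2 CPM (3.87-fold, 2.53e-10). Over that interval 6 of 9 contractile genes rose and 0 fell, 6 of 14 general actin genes rose and 4 fell, and 8 of 16 adhesion genes rose and 5 fell, where 50.3% of all genes were called (26.1% higher, 24.2% lower). From day 3 to day 7, 28 of the 40 were higher and 2 lower (55.6% of all genes called, 29.5% and 26.1%). Srf was at 76.5 and 76.2 CPM at day 0 and at 87.0 and 93.4 CPM at day 21, 1.20-fold higher (adjusted p = 0.00437). With library totals only the adjusted p of Srf was 0.175, and on days 3 and 7 it was not called (0.910 and 0.323).

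**Figure D4:**
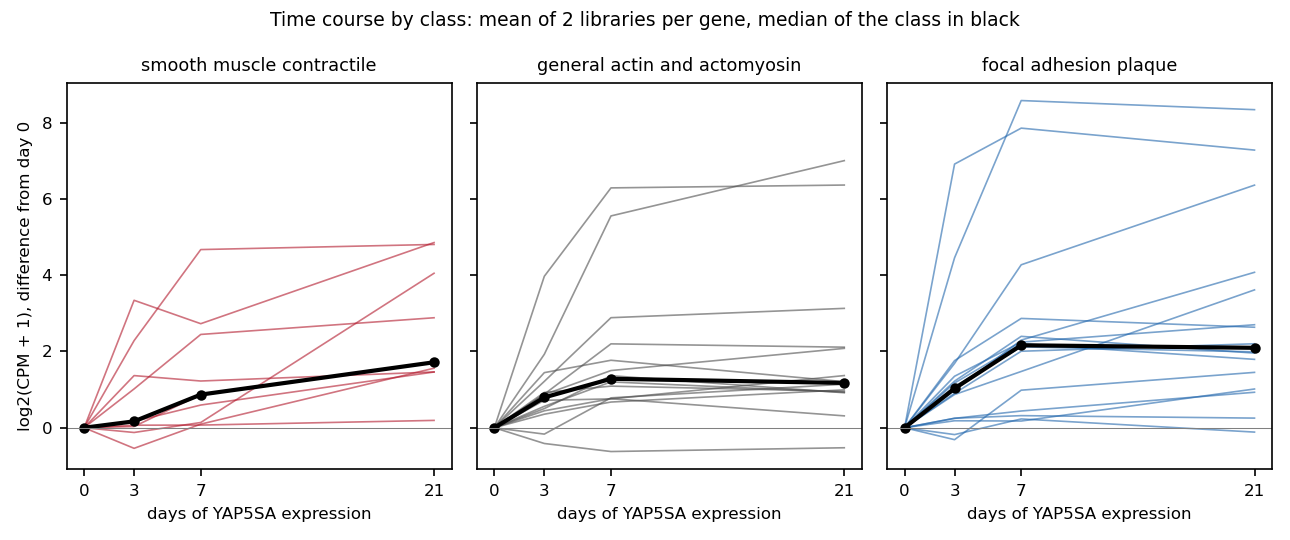
Change from day 0 of each gene (thin lines, mean of 2 libraries, difference of log2(CPM + 1)) against days of YAP5SA expression on a linear axis, by class, with the class median in black. The adhesion and general actin medians are level after day 7, while the contractile median goes on rising to day 21.

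Day 21 cells and Non-NE cells were then compared in a fit of 13 libraries that left out NE replicate 2. Of the 40 genes 2 were higher and 19 lower at day 21, where 55.3% of 14820 genes tested were called (30.8% higher, 24.5% lower). By class the counts higher and lower were 0 and 5 of 9 contractile, 0 and 8 of 14 general actin, and 2 and 5 of 16 adhesion genes, with median log2 differences of -2.62, -0.88 and -0.55. Of the 9 contractile genes, Acta2, Tagln, Cnn1, Myl9 and Cald1 overlapped between the groups. Srf was 1.61-fold lower (edgeR adjusted p = 0.0125), a call lost without day 21 replicate 1 (0.0900) or 2 (0.0571). Without day 21 replicate 1 or 2 only 13 and 15 of the genes were called, and without Non-NE replicate 1 the count was 27. This comparison crosses 2 sets of libraries, and the set and the state of the cells cannot be told apart.

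The 2 genes higher at day 21 were Lims2 and Tns1. Lims2 was at 162 and 188 CPM at day 21 and at 0, 3.05 and 0.531 CPM in Non-NE, 139-fold higher (log2 7.11, SE 0.66, adjusted p = 1.36e-05). Tns1 was at 305 and 373 CPM at day 21 against 18.5, 65.6 and 116 CPM in Non-NE, 5.06-fold higher (log2 2.34, SE 0.56, adjusted p = 0.00529). For both genes every day 21 library lay above every Non-NE library. Flnc (5.75-fold lower, adjusted p = 3.05e-05), Flna (5.00-fold, 6.18e-05), Zyx (4.46-fold, 2.48e-05) Tpm1 (4.11-fold, 0.000437) and Myh10 (2.07-fold, 0.000107) were the 5 lower genes with the smallest adjusted p. Acta2 had a log2 difference of -6.16 (SE 1.65, adjusted p = 0.00995), yet at 19.7 and 16.2 CPM the day 21 libraries lay just above the 15.0 CPM of Non-NE replicate 1, so the groups overlapped. That call was lost without either day 21 library (0.0723 and 0.0795), with limma-voom (0.128) and with the replicate number as a block (0.144).

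For Cnn1 the sign depended on Non-NE replicate 2. With all libraries Cnn1 was not called (log2 -0.72, adjusted p = 0.602), and without Non-NE replicate 2 it was higher at day 21 by a log2 difference of 2.14 (adjusted p = 0.0164). Vasp went from -0.06 (adjusted p = 0.910) to 0.53 (0.0283) in the same way, and Actn4, an actin crosslinker, from 0.39 (0.359) to 0.96 (0.000180). Parva, Lims1, Tns3, Pdlim1 and Myl6 were within a log2 difference of 0.21 of Non-NE at day 21 and were not called (adjusted p 0.535 to 0.946), which does not show that they were equal.

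Whether a gene moved differently by YAP5SA than between the states was tested as a difference of the 2 log2 changes, day 21 minus day 0 less Non-NE minus NE. It was below 0 for 11 of the 40 genes and above 0 for 1, where 32.8% of all genes were called (11.6% below, 21.2% above), while the median over all genes was 0.12. The count of 12 became 7 without day 0 replicate 2 or day 21 replicate 1, and 8 without day 0 replicate 1 or NE replicate 3. The genes whose rise was smaller with YAP5SA were Mylk, Tpm1, Cnn2, Cnn3, Tpm4, Myh9, Flna, Zyx, Pxn and Pdlim5, and Myh10 fell where Non-NE was not lower. Tpm1 showed -3.34 (SE 0.46, edgeR adjusted p = 0.000403) and Zyx -1.49 (SE 0.31, adjusted p = 0.00466). Tns1 rose more with YAP5SA, by 6.72 (SE 1.80, adjusted p = 0.0176), and that call was lost without NE replicate 3 (0.152), day 0 replicate 1 (0.0505) or day 0 replicate 2 (0.0698). For the most variable genes the test had little reach: the difference was -7.42 for Acta2 (SE 7.36, adjusted p = 0.484) and 6.69 for Lims2 (SE 3.37, adjusted p = 0.159).

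**Figure D5:**
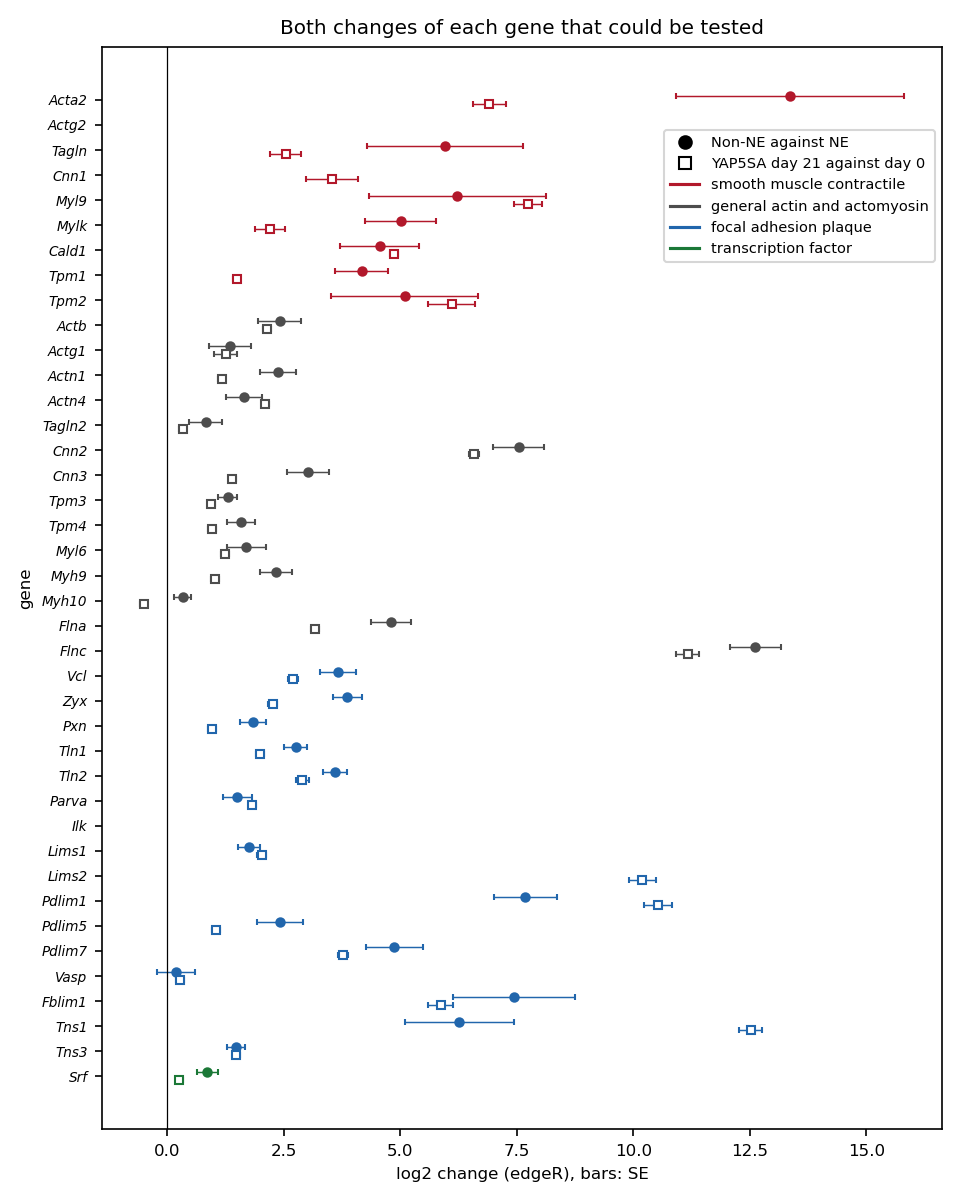
edgeR log2 change of each gene that could be tested between Non-NE and NE (filled circles) and between YAP5SA day 21 and day 0 (open squares), with SE bars, coloured by class. The bars for Acta2, Tagln, Myl9 and Tpm2 between Non-NE and NE are among the widest, and Tns1 and Pdlim1 lie further right for YAP5SA. Fitted changes of genes with 1 to 3 counts in the low group depend on the fit and are no bounds.

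Isoform balances within a family, taken as ratios of CPM per kilobase of exon, separated the groups in a different way from the levels. Lims2 stood at most at 0.61% of Lims1 in NE libraries and 1.93% in Non-NE libraries, but at 115% and 126% at day 3, 116% and 108% at day 7, and 73.5% and 92.4% at day 21. Day 3 to day 21 cells thus carried both PINCH genes at like levels, and NE and Non-NE cells almost only Lims1. Tns1 stood at 4.29%, 11.5% and 20.4% of Tns3 in Non-NE, and at 108% and 97.3% at day 7. Acta2 stood at 0.83%, 76.9% and 18.5% of Actb in the Non-NE libraries, and at 1.18% and 0.94% at day 21. Myl9 went from 0.90% of Myl6 in Non-NE replicate 1 to 163% in replicate 2. Myh10 stood at 72.8%, 61.6% and 140% of Myh9 in NE and at 31.6%, 14.6% and 20.8% in Non-NE, and went from 61.7% and 62.3% at day 0 to 22.4% and 20.9% at day 21. Flnc reached 34.7%, 18.4% and 23.6% of Flna in Non-NE and 20.5% and 21.3% at day 21. These ratios were not tested.

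Per kilobase of exon Actb was the most abundant of the 40 genes in Non-NE at 1445 ± 552 CPM per kilobase (SD, n = 3), followed by Acta2 at 585 ± 760, Tpm1 at 553 ± 254 and Tagln2 at 550.4 ± 276, and the last 3 do not differ beyond their spread. At day 21 the order was Actb at 773 ± 13.5 (SD, n = 2), Tpm4 at 388 ± 29.8, Tagln2 at 368 ± 2.37, Cnn2 at 243 ± 5.06 and Actn4 at 201 ± 14.3. Of the 50-base stretches of Tpm4 11.7%, and of those of Actb 9.12%, also occur in other genes. Acta2 held rank 31 of 40 at day 21, at 8.17 ± 1.14 CPM per kilobase. In NE Tagln2 led at 301 ± 11.1 (SD, n = 3), with Actb at 264 ± 124 within its spread.

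The shares of all genes called stand at 20.0% higher and 22.8% lower in Non-NE, and at 37.7% higher and 34.0% lower at day 21 against day 0, beside which the counts of related genes are to be read. Of 8 genes for SRF cofactors and related regulators, 4 were higher in Non-NE than NE and 0 lower, and 7 were higher at day 21 than day 0 and 0 lower. Mkl1, which encodes the actin-sensing cofactor MRTF-A, was at 46.6, 42.2 and 25.6 CPM in NE and at 145, 116 and 129 CPM in Non-NE, 3.30-fold higher (edgeR adjusted p = 0.00243). It rose from 42.5 and 45.2 CPM at day 0 to 98.0 and 115 CPM at day 21 (2.46-fold, adjusted p = 8.88e-13). Fhl1, a LIM protein of muscle, was at most 0.966 CPM in NE and day 0, at 511, 453 and 99.9 CPM in Non-NE, and at 904 and 866 CPM at day 21. Myocd, the cofactor specific to smooth and heart muscle, was at 0 in NE and at days 0 and 3, at most 0.106 CPM in Non-NE, and at 1.91 and 3.20 CPM at day 21. Elk3, an SRF partner of the ETS family, was at 160 to 178 CPM in Non-NE but at 8.57 and 9.11 CPM at day 21, 19.1-fold lower (adjusted p = 4.03e-07).

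Of 8 immediate early targets of SRF, 1 was higher and 1 lower in Non-NE, where 42.8% of all genes were called, and 4 were higher and 3 lower at day 21, where 71.7% were. Fos was the lower gene in Non-NE, at 1.82 to 3.29 CPM against 9.06 to 27.7 CPM in NE, and was at 86.7 and 113 CPM at day 21, against 26.5 and 24.2 CPM at day 0. Of 31 other focal adhesion genes, 11 were higher and 1 lower in Non-NE, and 19 and 8 at day 21, beside 42.8% and 71.7% of all genes called in either direction. Genes too low to test are among the 31. Ajuba, a LIM protein that binds Hippo kinases, had at most 0.320 CPM in NE and day 0, 150 to 335 CPM in Non-NE, and 252 and 321 CPM already at day 3.

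Of 11 neuronal or other paralogues of the 40 genes, 2 were higher and 3 lower in Non-NE, and 6 were higher and 3 lower at day 21 than day 0, again beside 42.8% and 71.7% of all genes. Tagln3, the neuronal transgelin, was at 32.2 to 42.8 CPM in NE, at most 0.611 CPM in Non-NE, and fell from 42.0 and 40.3 CPM at day 0 to 6.76 and 5.04 CPM at day 21 (log2 -2.78, adjusted p = 6.25e-15). Myh14, non-muscle myosin IIC, went in opposite directions: it was lower in Non-NE, by a log2 change of -7.65 (0.661 to 1.47 against 187 to 240 CPM, adjusted p = 2.59e-05) and 3.16-fold higher at day 21 than day 0 (665 and 867 against 240 and 251 CPM, adjusted p = 6.56e-14).

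Markers of other cells moved with some of these results. Of 8 fibroblast markers 5 were higher in Non-NE and 0 lower, their summed level was 9403 to 17569 CPM in Non-NE against 3.28 to 19.03 in NE, and Thy1 was at 0 in Non-NE. That sum differed less than 2-fold among the Non-NE libraries. Col1a1 was highest, at 14616 CPM, in the library lowest in Acta2, and made up most of the sum there. The sum therefore says little of the other markers in that library, and its relation to Acta2 was not tested. At day 21 the fibroblast sum was 48.8 to 53.5 CPM. The 9 smooth muscle markers, a list without the 40 genes, summed to 78.7 to 93.2 CPM in NE and 91.2 to 161 in Non-NE. At day 0 they summed to 78.4 to 87.7 CPM and at day 21 to 74.0 to 90.1. Of these 9, 1 was called higher and 2 lower in Non-NE, where 42.8% of all genes were called. Against day 0, 4 were higher and 1 lower at day 21, where 71.7% of all genes were called. The median log2 change of the 6 tested was 2.29 at day 21, which the sum does not show. Myh11, the smooth muscle myosin, was at most 0.743 CPM in Non-NE and 2.67 and 3.58 CPM at day 21. The 5 type I alveolar markers summed to 5311 to 5788 CPM at day 7 against 12.1 to 12.7 at day 0 and 24.2 to 146 in Non-NE. The 3 mesothelial markers summed to 261 to 690 CPM in Non-NE, with Wt1 and Upk3b at 0, and to 411 to 473 CPM at day 21. Immune (at most 9.20 CPM), endothelial (at most 2.34 CPM) and pericyte (at most 9.70 CPM) sums stayed low in every library, and skeletal and heart muscle markers summed to at most 128 CPM. The 8 neuroendocrine markers summed to 2483 to 3976 CPM in NE, 58.8 to 418 in Non-NE, 3760 to 3963 at day 0 and 657 to 673 at day 21. Calca, the gene of the CGRP promoter, was at 0 in every group except day 21. The 5 non-neuroendocrine markers summed to 77.5 to 705 CPM in NE, 4401 to 8828 in Non-NE, 73.3 to 78.1 at day 0, 1184 to 1354 at day 3, 989 to 1051 at day 7 and 429.9 to 446 at day 21. Their median log2 change against day 0 did not fall with the sum, at 3.66, 3.78 and 4.85 on days 3, 7 and 21. Called higher were 4, 4 and 5 of them, beside 26.2%, 37.2% and 37.7% of all genes. The list includes Yap1, the gene of YAP. The part of these cell programmes in the actin and adhesion results was not tested.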

How the data were processed

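Poly(A) RNA of 14 libraries was measured by RNA sequencing. STAR 2.4.2, featureCounts (with no version) and mm10 are named per the submitters' processing notes. Gene annotation and strand setting were not given in the sources used here. What the authors deposited was a table of raw counts for 32926 gene symbols, of which all 14 columns were used. Coordinates, exon lengths and shared 50-base stretches came from GENCODE M21 on mm10, and promoters from RefSeq.

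Counts were scaled by TMM, filtered with filterByExpr and tested with edgeR 4.0.16 (R 4.3.3; quasi-likelihood F test, robust) over all genes with Benjamini-Hochberg adjustment, two-sided, and calls at 0.05. Separate fits held 6 NE and Non-NE libraries, 8 YAP5SA libraries, and 13 libraries without NE replicate 2. The biological coefficient of variation was 0.399, 0.0548 and 0.266. Alternatives were DESeq2 size factors and the DESeq2 1.42.0 test, library totals, no count filter, at least 1 CPM, limma-voom (limma 3.58.1, also with a weight per library set), leave-one-out over libraries, a replicate block, a fit of all 14 libraries, and a threshold of 2-fold. Relative to TMM, library totals shifted the median log2 change of all genes by -0.26 (Non-NE against NE), -0.20 (day 7), -0.14 (day 21 against day 0 and day 7 against day 3) and 0.17 (day 21 against Non-NE and the difference of changes). A group at 0 was set to 3 counts over the group, and groups with 1 to 3 counts have exact 95% Poisson intervals on the ratio. These cover counting error only. By the rule for named genes, all 40 members and any gene of the related lists could be named. The result of 1 related list is not reported here. The members and the related lists were chosen with earlier results of these data known.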

Additional observations from a re-analysis of the deposited data

Results flagged for a closer look

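Of the 40 genes, 12 changed by a different amount with YAP5SA (day 21 less day 0) than between the states (Non-NE less NE) in edgeR's test of the difference of log2 changes. The contractile genes Mylk (-3.44) and Tpm1 (-3.34) and the general actin genes Cnn2 (-1.56), Cnn3 (-1.64), Tpm4 (-1.001), Myh9 (-1.51) and Flna (-1.45) rose less with YAP5SA. Myh10 (-0.81) fell with YAP5SA and was not called between the states. The adhesion genes Zyx (-1.49), Pxn (-1.14) and Pdlim5 (-1.97) rose less, and Tns1 (6.72) rose more. Cnn3 lost its call under 11 alternatives (adjusted p 0.0591 to 0.143) and Mylk under 6 (0.0559 to 0.0981). Cnn2 and Tns1 lost theirs under 4 each (up to 0.150 and 0.152), Tpm4 under 3 (up to 0.152), Myh9, Flna and Pxn under 2 each (up to 0.0732, 0.0578 and 0.0645) and Pdlim5 under 1 (0.0785).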

How the results depend on the processing

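Counts of the 40 genes called stayed within 1.5 times of those reported except as follows. With a 2-fold threshold they were 19 of 32 for day 3 against day 0, 17 of 30 for day 7 against day 3 and 9 of 29 for day 21 against day 7. With all 14 libraries in a fit, where days share the wider spread of NE and Non-NE, they were 11 (day 3 against day 0), 23 of 35 (day 7 against day 0), 12 (day 7 against day 3) and 3 (day 21 against day 7). Leaving out 1 library gave 13 to 27 for day 21 against Non-NE (21 reported) and 7 to 17 for the difference of changes (12 reported). The lowest came without day 21 replicate 1 (for the difference also without day 0 replicate 2), and the highest without Non-NE replicate 1. A direction turned, with a call before or after, in 4 cases: Pdlim5 at day 7 against day 0 (-0.011 with library totals only, 0.19 reported), Cald1 in the difference of changes (-1.73 without NE replicate 1, 0.50 reported; up to 1.33 without another library), and for day 21 against Non-NE Cnn1 (2.14) and Vasp (0.53) without Non-NE replicate 2. Leaving out other libraries gave Cnn1 down to -1.26 and Vasp down to -0.32. A further 69 values of 27 results changed sign with no call on either side. The causes were not tested. Counts over all genes moved likewise. For days 3, 7 and 21 against day 0, day 7 against day 3 and day 21 against day 7 they went from 6804, 9932, 10032, 7785 and 7042 to 1942, 4371, 4387, 2293 and 1782 with a 2-fold threshold, and to 1041, 4589, 4586, 1281 and 515 with all 14 libraries in a fit. That fit raised Non-NE against NE from 5554 to 8997. For the difference of changes 4864 became 3224 or 3170 without day 0 replicate 1 or 2.

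Samples with the same replicate number had only weakly correlated deviations (correlations -0.0151 to 0.0455 for NE and Non-NE, -0.121 to 0.0504 between days). With 2 libraries a day the deviations mirror each other, so each pair of days gives a single value. The check therefore cannot exclude a pairing. With the replicate block the counts were 31 for Non-NE against NE, 32, 35 and 38 for days 3, 7 and 21 against day 0, 30 for day 7 against day 3, 29 for day 21 against day 7, 20 for day 21 against Non-NE and 12 for the difference of changes. Genes under a few counts per library, such as Actg2, Cnn1 and Ilk, are limited by depth.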
